A study of Homo sapiens with 4 samples.

Results

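RNA-seq counts of 66 small nucleolar and Cajal body RNA genes were compared between androgen-treated LNCaP cells with and without CPI-455. The 66 are the genes whose symbol starts with SNORD (35 C/D box RNAs), SNORA (27 H/ACA box RNAs) or SCARNA (4 Cajal body RNAs) and that had at least 20 counts summed over the 4 libraries, so they were selected on the same counts that are compared here. The annotation of the deposited counts holds 60675 genes, of which 550 carry such a symbol (312 SNORD, 213 SNORA and 25 SCARNA). LNCaP is an androgen-responsive human prostate cancer line derived from a lymph node metastasis. All cells received 1 nM of the synthetic androgen R1881 for 72 h, 2 cultures together with DMSO vehicle and 2 together with 50 µM CPI-455, an inhibitor of the KDM5 histone demethylases. The sources give different final DMSO concentrations, and no culture without androgen was analysed here, so the comparison is of R1881 with inhibitor against R1881 with vehicle in a single cell line.

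Small nucleolar RNAs guide the chemical modification of other RNAs by base pairing. C/D box RNAs direct ribose methylation with the methyltransferase fibrillarin, H/ACA box RNAs direct pseudouridylation with dyskerin, and a few members of both kinds act in the cleavage of ribosomal RNA precursors instead. Cajal body RNAs carry either kind of box, or both, and mostly guide modification of the spliceosomal RNAs. In human cells most of these RNAs lie in introns of other genes, are released when the intron is spliced and its lariat opened, and are protected from exonucleases by the proteins bound to their boxes.

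The sequences shown next are those of members the results turn on, read 5′ to 3′ from the GRCh38 genome at the deposited coordinates. In the C/D box RNAs, capitals mark the C box letters TGATGA within the first 20 bases and the D box letters CTGA within the last 15 bases, and in the H/ACA box and Cajal body RNAs they mark ACA placed 3 bases before the 3′ end (ACANNN). SNORD14E (chr11:123058077-123058161, minus strand) and SNORD14A (chr11:17074654-17074744, minus strand) are related RNAs in different host genes, 75.3% identical when the shorter was aligned within the longer. SNORD100 (chr6:132816802-132816877, plus strand) is one of 3 members in introns of RPS12. SNORA66 (chr1:92840719-92840851, plus strand) and SNORA73B (chr1:28508559-28508762, plus strand) are H/ACA box RNAs, SCARNA13 (chr14:95533355-95533629, minus strand) is the Cajal body RNA with the largest difference, and SNORD18 (chr15:90755243-90755312, minus strand) is the member with the most negative fold change.
SNORD14E: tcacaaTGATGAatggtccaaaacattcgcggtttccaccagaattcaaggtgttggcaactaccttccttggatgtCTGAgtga
SNORD14A: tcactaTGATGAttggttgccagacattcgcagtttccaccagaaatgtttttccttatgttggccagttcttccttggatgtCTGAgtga
SNORD100: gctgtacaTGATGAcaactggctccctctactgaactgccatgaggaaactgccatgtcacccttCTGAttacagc
SNORA66: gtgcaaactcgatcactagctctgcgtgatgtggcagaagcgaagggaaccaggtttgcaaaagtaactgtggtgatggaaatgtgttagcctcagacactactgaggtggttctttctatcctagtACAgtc
SNORA73B: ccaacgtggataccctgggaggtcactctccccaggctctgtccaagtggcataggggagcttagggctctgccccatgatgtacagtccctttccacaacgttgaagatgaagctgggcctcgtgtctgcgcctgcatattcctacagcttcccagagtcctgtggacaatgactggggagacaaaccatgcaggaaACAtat
SCARNA13: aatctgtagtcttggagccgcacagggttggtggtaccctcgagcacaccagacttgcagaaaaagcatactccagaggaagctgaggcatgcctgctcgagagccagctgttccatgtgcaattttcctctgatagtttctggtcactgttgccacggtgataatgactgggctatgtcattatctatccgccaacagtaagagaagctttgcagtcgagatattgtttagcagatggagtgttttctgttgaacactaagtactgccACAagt
SNORD18: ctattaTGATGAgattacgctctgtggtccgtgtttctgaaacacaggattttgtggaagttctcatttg

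The labels of the classes were checked against these letters on the annotated strand. TGATGA stood in the first 20 bases of 22 of the 35 C/D box members (62.9%) and of none of the 27 H/ACA box members. CTGA stood in the last 15 bases of 27 C/D box members (77.1%), and 21 members (60.0%) held both boxes. In windows of the same length just upstream of the C/D box members, TGATGA was at that place in 1 (2.86%), CTGA in 3 (8.57%) and the pair in 0. ACANNN ended 19 of the 27 H/ACA box members (70.4%), 2 of the C/D box members and 0 of the upstream windows of the H/ACA box members. Among the 4 Cajal body members, 2 held both C/D letters and 1 the ACA letters. SNORD14E, SNORD14A and SNORD100 held both boxes, whereas SNORD18 held the C box letters alone. An absent match says only that these exact letters are not in that window.

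The members were measured at low counts. Counted fragments per library were 19623553 and 20690819 in vehicle cells (replicates 1 and 2) and 9522920 and 5401588 with CPI-455, so a single fragment was worth 0.0462 to 0.0477 CPM (library-scaled counts, by TMM) in the vehicle libraries, and 0.111 to 0.197 CPM in the CPI-455 libraries. A count of 0 allowed a level of up to 3 fragments, which is 0.139 to 0.143 CPM in the former and 0.333 to 0.591 CPM in the latter, for counting error only. Totals over the 4 libraries ran from 20 to 1460 with a median of 53, and 33 members had a total between 20 and 50. Just inside the minimum were SNORD89 and SCARNA12 with 20 counts, and SNORD127, SNORD18, SNORD53B and SNORA79B with 21. Just outside were SNORA2A and another gene named SNORA75, not a member, with 18 counts, and SNORA14B and SNORD7 with 17.

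The minimum itself was reached mainly through the CPI-455 libraries, in spite of their lower depth. Of the 66 members, 38 reached 20 counts in the CPI-455 libraries alone and not in the vehicle libraries, 3 in the vehicle libraries alone, 14 in both groups and 11 only in the sum. A member that passed through CPI-455 alone had to be higher there, so counts and medians over the 66 describe the genes that passed and are not independent evidence of a direction. At least 1 fragment was counted on 60 and 55 members with vehicle and on 65 and 60 members with CPI-455. The median member had 4 and 3 counts in vehicle cells and 24 and 15 in CPI-455 cells.

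Fragments on the 66 members made up a larger share of the libraries with CPI-455. Their summed counts were 529 and 426 in vehicle cells and 3799 and 2309 in CPI-455 cells, which are 0.00270% and 0.00206% against 0.0399% and 0.0427% of all counted fragments. As summed CPM the members had 22.5 ± 3.92 in vehicle cells (SD, n = 2) and 438 ± 23.4 in CPI-455 cells (n = 2), a ratio of means of 19.5. SNORD14E alone supplied 21.95% and 26.94% of the members' counts with CPI-455, and 0.756% and 0% with vehicle. Without SNORD14E the summed CPM was 22.4 ± 3.78 with vehicle and 331 ± 2.22 with CPI-455, a ratio of 14.8. In each class, both CPI-455 values of the sum lay above both vehicle values. The C/D box sum was 13.6 and 8.97 CPM in vehicle cells and 244 and 275 CPM in CPI-455 cells. The H/ACA box sum was 10.4 and 9.11 CPM in vehicle cells and 161 and 164 CPM in CPI-455 cells. The Cajal body sum was 1.43 ± 0.267 CPM in vehicle cells and 16.5 ± 0.728 CPM in CPI-455 cells (n = 2).

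**Figure D1:**
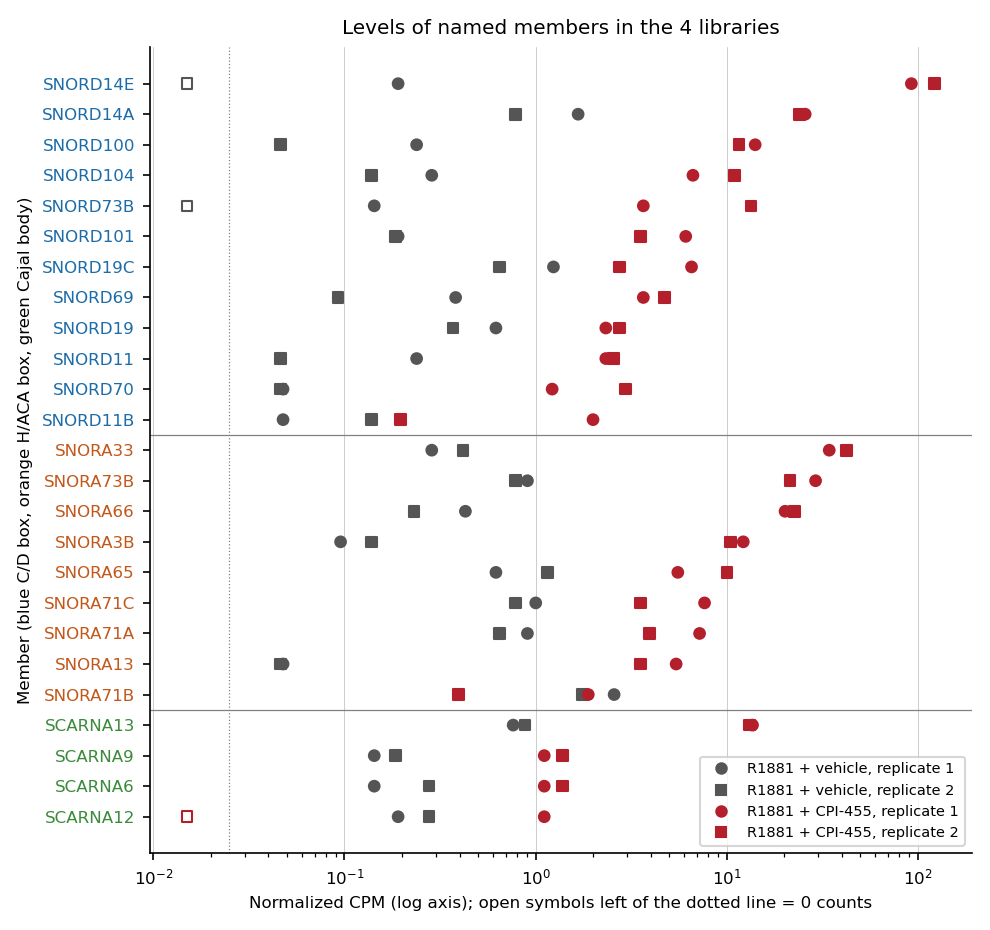
Levels of the named members in each library, as CPM scaled by TMM on a log axis, with 1 row for each RNA, circles and squares for replicates 1 and 2, and grey for vehicle and red for CPI-455. Open symbols left of the dotted line mark libraries with 0 counts. For SNORD14E the CPI-455 libraries lie at 92.6 and 122 CPM and the vehicle libraries at 0.191 CPM and 0.

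Tested gene by gene, 53 of the 66 members (80.3%) were called higher with CPI-455, 0 were called lower, and 13 were not called. A gene was called when the false discovery rate (FDR) of edgeR's quasi-likelihood test, adjusted by Benjamini-Hochberg over all 19118 genes with at least 20 summed counts, was below 0.05 and its change was at least 2-fold. Of all genes tested, 18.4% were called higher and 21.1% lower. No member was lower at an unadjusted p below 0.05, and DESeq2 and edgeR's likelihood-ratio test also called 0 lower. Both CPI-455 values lay above both vehicle values for 55 members, against 36.4% of all genes, and below them for 1 member, against 42.8%. The median log2 fold change of the members, CPI-455 over vehicle, was 4.16 (interquartile range 2.71 to 5.54), and that of all genes tested was -0.07 (-1.02 to 0.94). Since the summed minimum chose the members, the 17 members with at least 20 counts in the vehicle libraries alone are given apart: 11 were called higher, and their median was 2.67. The 18.4% of all genes is over the summed minimum, so it is not a background matched to these 17. The other 49 members had a median of 4.90, with 42 called higher. With no filter on low counts 50 members were called higher, against 9.92% of all genes, and with glmTreat, which tests against a 2-fold change, 47 were, against 11.8%.

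By class, each was read against the 18.4% of all genes called higher. Of the C/D box members, 29 of 35 (82.9%) were called higher, and their fold changes had a median of 4.34 on the log2 scale. Of the H/ACA box members, 21 of 27 (77.8%) were called higher, with a median of 4.04. Of the Cajal body members, 3 of 4 were called higher, with a median of 2.67. Without vehicle replicate 2 the C/D box count was 19, without vehicle replicate 1 the H/ACA box count was 13, and without either, as with DESeq2 or no filter, the Cajal body count was 1. With a trend of counts with length and GC removed, described further on, the class medians were 3.14, 2.61 and 1.60. The ranges of the classes overlapped, from -1.66 to 10.02, from -1.13 to 6.73 and from 1.39 to 4.02 in that order, and the difference between classes was not tested.

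**Figure D2:**
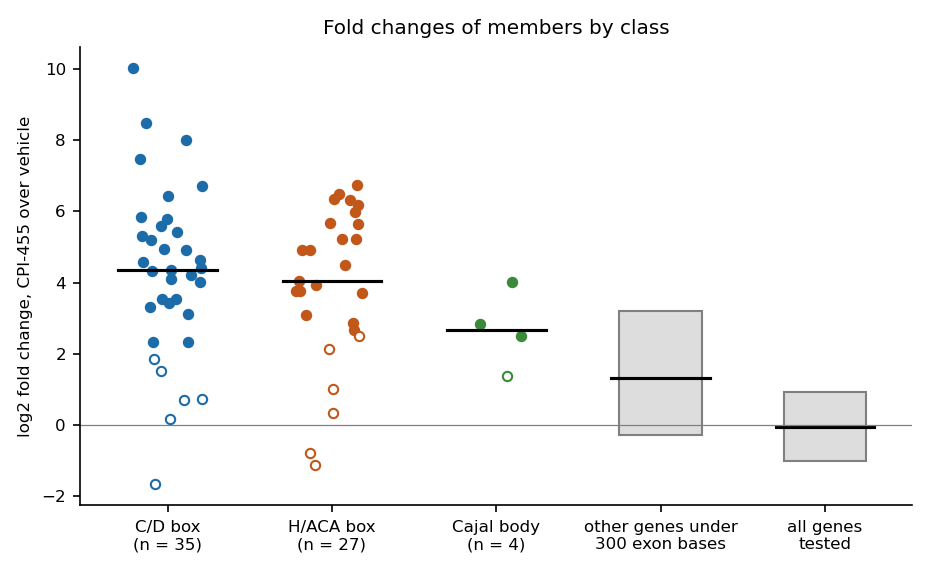
Log2 fold change (CPI-455 over vehicle) of every member by class, 35 C/D box, 27 H/ACA box and 4 Cajal body RNAs, with filled symbols for members called higher, open symbols for those not called and a line at the median. Grey boxes give the interquartile range of other genes under 300 exon bases and of all genes tested. The class medians are 4.34, 4.04 and 2.67, and the highest point is SNORD14E at 10.02.

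Among the C/D box RNAs, SNORD14E, a copy of the U14 family that acts in small-subunit ribosomal RNA processing, had the largest difference. It had 4 and 0 counts in vehicle cells and 834 and 622 counts in CPI-455 cells, or 0.0954 ± 0.135 CPM and 108 ± 21.2 CPM (SD, n = 2). The log2 fold change was 10.02 (SE 0.40, FDR 2.68e-07). SE is here the fold change divided by the square root of the test's F statistic, and at few counts it can understate the uncertainty. Across fits that each omitted 1 library the fold change was 9.08 to 13.33. The upper end of that range comes from leaving out vehicle replicate 1, the only vehicle library with a fragment on this gene. SNORD14A, its relative in an intron of RPS13, had 35 and 17 counts in vehicle cells and 232 and 122 in CPI-455 cells, a log2 fold change of 4.34 (SE 0.34, FDR 3.99e-06), or 4.98 without vehicle replicate 1. Both RNAs were therefore higher with CPI-455 in every pairing of libraries, although their counts with vehicle differed.

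SNORD3A encodes U3, the abundant C/D box RNA needed to cleave the ribosomal RNA precursor. It had 4 and 2 counts in vehicle cells and 80 and 27 in CPI-455 cells (log2 fold change 5.59, SE 0.64, FDR 4.38e-05). SNORD3C had 0 and 0 counts in vehicle cells and 20 and 21 in CPI-455 cells, at least 41.3-fold higher against a floor of 3 fragments over both vehicle libraries, where the 95% counting interval of the ratio starts at 32.1. The counted intervals are 699 bases for SNORD3A and 581 for SNORD3C, and may include sequence outside U3. Over them the copies are 99.8% identical, and fragments that matched several places were not counted. The level of U3 and its split between the copies are therefore uncertain. Neither had a host gene on its strand.

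SNORD104 and SNORD73B completed the C/D box RNAs with the highest mean CPM. SNORD104 had 6 and 3 counts in vehicle cells and 60 and 56 in CPI-455 cells (log2 fold change 5.31, SE 0.59, FDR 3.55e-05, and 5.90 without vehicle replicate 1). SNORD73B, in an intron of the ribosomal protein gene RPS3A, had 3 and 0 counts in vehicle cells and 33 and 68 in CPI-455 cells, a ratio of CPM of 102 with a 95% counting interval of 33.9 to 502. The groups did not overlap for either RNA, and the CPI-455 libraries differed from each other more for SNORD73B (8.53 ± 6.88 CPM, n = 2) than for SNORD104 (8.84 ± 3.09 CPM, n = 2). SNORD51 and SNORD89 had 0 counts in both vehicle libraries. Both share exon bases with another annotated gene, and fragments that met more than 1 gene were not counted in either group. Against the same floor over both vehicle libraries, SNORD51 had 8 and 19 counts with CPI-455, at least 27.2-fold higher (interval from 20.7), and SNORD89 had 9 and 11 counts, at least 20.2-fold higher (interval from 14.9), though it was not called without either vehicle library. With SNORD3C, SNORD51 and SNORD89 set to their bounds, the medians were 4.33 for the C/D box RNAs and 4.16 for all members.

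Among the H/ACA box RNAs, SNORA33, in an intron of RPS12, had the largest fold change and the most counts. It had 6 and 9 counts in vehicle cells and 310 and 215 in CPI-455 cells, or 0.351 ± 0.0918 CPM and 38.4 ± 5.61 CPM (n = 2), a log2 fold change of 6.73 (SE 0.31, FDR 3.19e-07). SNORA3B, in an intron of RPL27A, had 2 and 3 counts in vehicle cells and 110 and 53 in CPI-455 cells (log2 fold change 6.50, SE 0.51, FDR 3.98e-06), counted on the part of its 131 bases not shared with another annotated gene, since 91 are shared. Both rose in every pairing of libraries. SNORA66, in an intron of RPL5, had 9 and 5 counts in vehicle cells and 182 and 115 in CPI-455 cells (log2 fold change 5.98, SE 0.37, FDR 1.13e-06). SNORA13, in the non-coding host EPB41L4A-AS1, had 1 and 1 counts in vehicle cells and 49 and 18 in CPI-455 cells, a ratio of CPM of 101 with a 95% counting interval of 26.97 to 854.

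SNORA73B, of the U17 family that acts in ribosomal RNA cleavage rather than modification, was among the H/ACA box RNAs best measured with vehicle. It had 19 and 17 counts in vehicle cells and 263 and 109 in CPI-455 cells, or 0.846 ± 0.0851 CPM and 25.3 ± 5.46 CPM (n = 2), a log2 fold change of 4.90 (SE 0.31, FDR 1.25e-06). SNORA65, in an intron of RPL12, had 13 and 25 counts in vehicle cells and 50 and 51 in CPI-455 cells (log2 fold change 3.09, SE 0.52, FDR 5.69e-04). For both the groups did not overlap, but SNORA65 was not called with the length and GC trend removed (1.54, edgeR FDR 0.0523).

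The 4 Cajal body RNAs had between 7 and 35 counts in the vehicle libraries together. SCARNA13 had 16 and 19 counts in vehicle cells and 123 and 67 in CPI-455 cells, or 0.821 ± 0.0815 CPM and 13.4 ± 0.323 CPM (n = 2), a log2 fold change of 4.02 (SE 0.35, FDR 8.04e-06). Of its 275 bases, 127 are shared with GLRX5 on the opposite strand, and strand was not used in counting, so fragments there were not counted on either gene. SCARNA9 had 3 and 4 counts in vehicle cells and 10 and 7 in CPI-455 cells (log2 fold change 2.84, SE 0.97, FDR 0.0289), and SCARNA6 had 3 and 6 against 10 and 7 (2.50, SE 0.95, FDR 0.0458). SCARNA12 had 4 and 6 counts in vehicle cells and 10 and 0 in CPI-455 cells and was not called (1.39, SE 1.24, FDR 0.363). Leaving out either vehicle library left SCARNA13 as the only Cajal body RNA called, with SCARNA6 at 2.13 and 3.04 and SCARNA9 at 2.69 and 3.04. Both also lost their calls with the length and GC trend removed (1.18 and 2.02). SCARNA12 stood at -4.95 without CPI-455 replicate 1 and was called higher without replicate 2 (2.21). SCARNA13 kept its call in every fit.

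The 13 members not called had fold changes from -1.66 to 2.50 on the log2 scale, and 3 of these were negative. SNORD18 had 11 and 8 counts in vehicle cells and 2 and 0 in CPI-455 cells (log2 fold change -1.66, SE 1.30, FDR 0.302). It was the single member with both CPI-455 values below both vehicle values, and stood at -5.85 without CPI-455 replicate 1 and -0.99 without replicate 2. SNORA55, in an intron of the poly(A)-binding protein gene PABPC4, had 19 and 10 counts in vehicle cells and 1 and 3 in CPI-455 cells (-1.13, SE 1.12, FDR 0.412), and its groups overlapped in CPM. Leaving out 1 library placed SNORA55 between -2.54 (without CPI-455 replicate 2) and -0.21 (without CPI-455 replicate 1), with -0.47 without vehicle replicate 1. SNORD17, in an intron of the sorting nexin gene SNX5, had 30 and 20 counts in vehicle cells and 17 and 3 in CPI-455 cells (0.16, SE 0.74, FDR 0.87, and -0.98 without CPI-455 replicate 1), while SNX5 was called higher at 1.79. SNORD62B and SNORA60 had 27 and 17 counts in CPI-455 replicate 1 and 0 in replicate 2. SNORA22 showed the opposite, with 0 counts in CPI-455 replicate 1 and 12 in replicate 2. Without the library at 0, SNORD62B (1.596), SNORA60 (1.86) and SNORA22 (3.28) were called higher, and without CPI-455 replicate 1 SNORD62B was called lower (-6.98). Of the members, 6 had 0 counts in CPI-455 replicate 2, the shallowest library, and 1 had 0 counts in CPI-455 replicate 1. The named members that were not called were chosen after their values were seen.

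Most members sit inside another gene, so each was set beside its host, the same-strand gene that contains it. Of the 66, 54 lay in a host intron, 5 overlapped a host exon and 7 had no host on their strand. The nearest host exon was a median of 112 bases from an intronic member (19 to 4963), and 38 of the 54 lay within 200 bases. The 59 members with a tested host fell in 49 host genes. Of these hosts, 20 (40.8%) were called higher and 4 (8.16%) lower, against 18.4% and 21.1% of all genes, and 25 were not called. The hosts had a median log2 fold change of 0.82. The member's fold change was above its host's in 54 of the 59 pairs. The median of the difference, member minus host, was 3.09 on the log2 scale (interquartile range 1.94 to 4.97). The 20-count minimum favours members that are higher with CPI-455, since 38 of the 66 reached it through those libraries alone. The hosts, with a median total of 12206 counts, were not selected in this way, so the difference is not independent evidence. In the fit of genes with at least 10 counts in every library the median difference was 2.21. Across the 59 pairs the fold changes of member and host had a Pearson correlation of 0.17 and a Spearman correlation of 0.12, given as a description, since several pairs share a host and all share the 4 libraries.

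**Figure D3:**
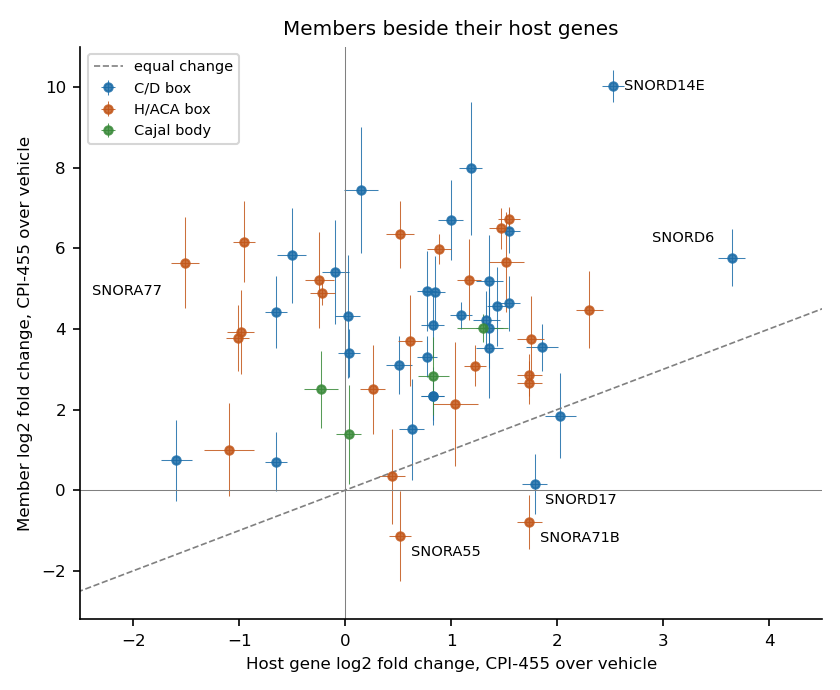
Log2 fold change (CPI-455 over vehicle) of each of 59 members (vertical axis) against that of its host gene (horizontal axis), with a dashed line of equality. Bars give 1 SE, derived from the test's F statistic. In 54 of the 59 pairs the member lies above the line; SNORA77 and SNORA28 rose while their hosts ATP2B4 and EIF5 fell.

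Member and host were both called higher in 22 pairs, and in 23 the member was called higher and the host was not called. These are 84.6% of the 26 members with a host called higher and 79.3% of the 29 with a host not called. In some of those 23 pairs the host was below 0 at an FDR below 0.05 but short of 2-fold (-0.51 to -0.99). In 2 pairs the member was called higher and the host was called lower. SNORA77 (2 and 0 counts with vehicle, 27 and 13 with CPI-455) had a log2 fold change of 5.64 (8.07 without vehicle replicate 1, 4.74 without replicate 2), and ATP2B4, a plasma membrane calcium pump, had -1.51 (SE 0.13). SNORA28 (3 and 6 counts with vehicle, 24 and 17 with CPI-455) had 3.77, and the translation initiation factor gene EIF5 had -1.01 (SE 0.11). Without vehicle replicate 1 SNORA28 was not called (3.40), and EIF5 stood at -0.99 with RLE factors, short of the 2-fold threshold, as it was without vehicle replicate 2 (-0.96) and with the length and GC trend removed (-0.45). At the other end, TAF1D, a subunit of the selectivity factor of RNA polymerase I, had the largest rise among the hosts, 3.65 (SE 0.12), and SNORD6 in its intron had 5.77, with 4 and 1 counts in vehicle cells and 51 and 42 in CPI-455 cells (6.95 without vehicle replicate 1, 5.13 without replicate 2). HSPA8, the constitutive heat shock cognate chaperone that hosts SNORD14E, had 583 ± 21.5 CPM with vehicle and 3359 ± 212 CPM with CPI-455 (n = 2), a log2 fold change of 2.53, below that of SNORD14E by 7.50. RCC1, the exchange factor for the GTPase Ran that hosts SNORA73B, was not called (-0.22, SE 0.12). A fragment of an unspliced intron that overlaps a member would be counted on the member, so free RNA and host precursor cannot be told apart in these counts.

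Hosts that carry several members give comparisons within a single transcript. In RPS12 (log2 fold change 1.55), a protein of the small ribosomal subunit, SNORA33, SNORD100 and SNORD101 had fold changes of 6.73, 6.43 and 4.64 and all were called higher. SNORD100 had 5 and 1 counts in vehicle cells and 127 and 59 in CPI-455 cells, and stood at 7.84 without vehicle replicate 1 and 5.71 without replicate 2. SNORD101 had 4 and 4 against 55 and 18. In NOP58 (1.36), itself a core protein of C/D box particles, SNORD70, SNORD11 and SNORD11B had 5.19, 4.03 and 3.53. SNORD11B had 18 counts and 1 count with CPI-455 and lost its call without CPI-455 replicate 1 (1.01), vehicle replicate 1 (2.95) or vehicle replicate 2 (4.31), and with the length and GC trend removed (2.30). SNORD70 lost its call without either vehicle library (5.21 and 5.17) and stood at 4.501 without CPI-455 replicate 2. SNORD11 lost its call without vehicle replicate 2 (3.32) and stood at 5.45 without vehicle replicate 1. In GNL3 (0.82), the nucleolar GTPase nucleostemin, SNORD69 had 4.09 and SNORD19 and SNORD19C had 2.33 each, and all were called higher while the host did not reach 2-fold. SNORD19 lost its call without vehicle replicate 1 (2.76) or 2 (2.03), and SNORD19C without vehicle replicate 2 (1.94), with 1.54 without CPI-455 replicate 1. With the length and GC trend removed neither was called (1.02 for SNORD19, 1.15 for SNORD19C), and GNL3 passed 2-fold (1.25). SNORD69 stood at 5.36 without vehicle replicate 1 and 3.44 without replicate 2.

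SNHG17, a long non-coding RNA gene that hosts small nucleolar RNAs, held members on both sides of 0. SNORA71A had 19 and 14 counts in vehicle cells and 65 and 20 in CPI-455 cells (log2 fold change 2.86, SE 0.53, FDR 0.00113). SNORA71C had 21 and 17 against 69 and 18 (2.67, SE 0.53, FDR 0.00176). SNORA71B had 54 and 38 against 17 and 2 and was not called (-0.79, SE 0.68, FDR 0.346). SNHG17 itself was called higher (1.74, SE 0.12). SNORA71A and SNORA71C are both 134 bases long and 82.8% identical, whereas SNORA71B is annotated with 272 bases. The difference between SNORA71B and its neighbours was not itself tested. SNORA71B was called lower without CPI-455 replicate 1 (-2.43) and stood at -0.20 without replicate 2, and SNORA71C stood at 1.98 without CPI-455 replicate 1. When a length and GC trend was removed, SNORA71B was called lower (-2.18) and SNORA71C was no longer called (0.93).

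By type of host, all 14 members in ribosomal protein genes were called higher (median log2 fold change 4.77). Of the 35 members in other protein-coding genes 27 were called higher, with a median of 3.93, and of the 7 in long non-coding genes 5 were, with a median of 2.86. Of the 7 members without a host 6 were called higher, with a median of 5.31. The share called higher among all genes tested, 18.4%, is the background of each of these counts, and the types of host were not tested against each other.

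Length and base composition were examined because the members are among the shortest genes counted. C/D box members had a median length of 80 bases, H/ACA box members 134 and Cajal body members 272.5. Members under 100 bases had a median log2 fold change of 4.34 (22 of 27 called higher), those of 100 to under 200 bases 4.13 (25 of 30) and those of 200 bases or more 2.84 (6 of 9). Across the 66 members the Spearman correlation of fold change with length was -0.11, and with GC content -0.17. Other short genes also had higher values with CPI-455: of the 282 other tested genes under 300 exon bases, 35.5% were called higher and 10.6% lower, with a median of 1.32. Genes of 300 to under 1000 exon bases had a median of 1.04, and those of 1000 or more had -0.16. When the trend of counts with exon length and GC was smoothed and taken out of each library, 41 members were called higher, against 20.9% of all genes, and the median of the members was 2.90. The median of member minus host was then 1.40, and SNORD14E stood at 8.77. The median difference of the members was thus smaller on that scale, and that of all genes was 0.15.

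**Figure D4:**
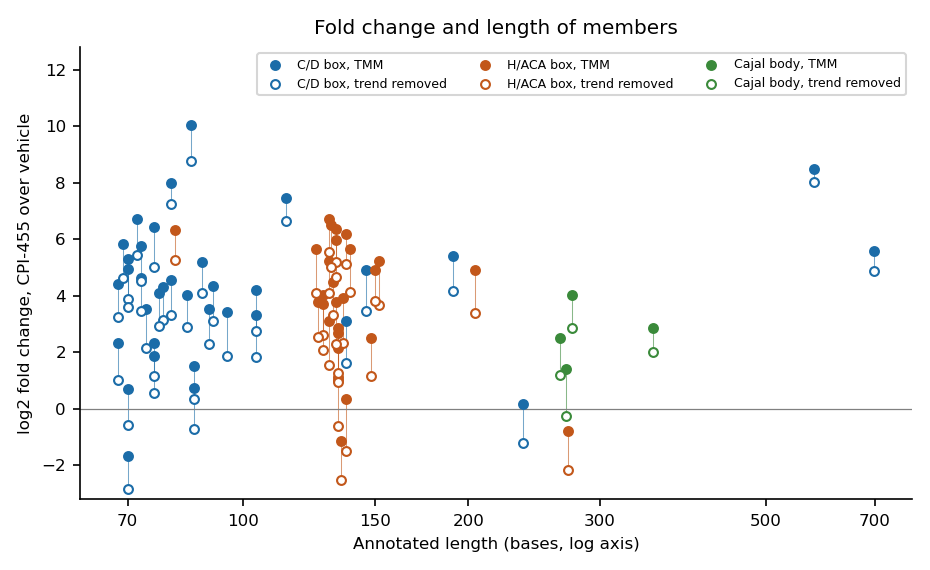
Log2 fold change (CPI-455 over vehicle) of the 66 members against annotated length in bases on a log axis, coloured by class, with filled symbols for the TMM-scaled fit joined to open symbols for the fit with the length and GC trend removed. The open symbols lie lower, with a median of 2.90 against 4.16, and SNORD14E moves from 10.02 to 8.77.

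Members were also split by overlap with other annotated genes and by total count. Of the 55 members that share no exon base with another gene, 44 (80.0%) were called higher with a median of 4.04, and of the 11 that share bases, 9 were, with a median of 4.94, or 4.48 with members at 0 in the vehicle libraries at their bound. Members with a total of at least 100 counts were called higher in 18 of 19 cases (median 4.34), and those with fewer in 35 of 47 (median 4.09), where the CPI-455 counts enter the total. The share of all genes called higher, 18.4%, is the background here too.

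Proteins that bind, assemble or process these RNAs were read from the same fit. The 30 genes read encode particle proteins, assembly factors, Cajal body and cap proteins and processing enzymes. Of these, 5 were called higher and 2 lower, against 18.4% and 21.1% of all genes. NOP58, a scaffold of C/D box particles, rose (1.36, SE 0.12), whereas NOP56 (0.98), SNU13 (0.87) and the methyltransferase FBL (-0.13, and 0.08 with upper-quartile factors) were not called. NOP56 passed 2-fold without vehicle replicate 1 or CPI-455 replicate 1 (1.05 each), and SNU13 without CPI-455 replicate 2 (1.01), and both with the length and GC trend removed (1.21 and 1.07). None of the 4 H/ACA core proteins was called by edgeR's quasi-likelihood test, by DESeq2 or by the likelihood-ratio test, and 1, NOP10, had an unadjusted p below 0.05, with DKC1 at 0.21, NHP2 at 0.15, NOP10 at 0.54 and GAR1 at 0.04. With library totals alone GAR1 was at -0.12 and NHP2 at -0.01. Of the 10 assembly genes, PIH1D1, of the complex that builds box C/D particles, rose by 1.29 and NOLC1, a nucleolar and Cajal body chaperone, fell (-1.06), although NOLC1 stood at -0.90 without CPI-455 replicate 1, -0.96 without vehicle replicate 2 and -0.69 with the trend removed. Of the 6 Cajal body and cap genes, GEMIN2 (1.12) and SMN1 (1.67) were called higher and PHAX, an export adaptor of capped small RNAs, lower (-1.99, SE 0.14), with SMN1 uncertain because its near-identical copy SMN2 shares its reads. Of the 6 processing genes, EXOSC10, a nuclear exosome nuclease, was called higher (1.95, SE 0.15), and the lariat debranching enzyme DBR1 had -0.99 (SE 0.16) and fell short of the 2-fold threshold, which it passed without vehicle replicate 2 (-1.03) or CPI-455 replicate 2 (-1.11).

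Other features of the libraries moved with the same contrast, and their part in the result was not tested. The nuclear RNA MALAT1 took 0.114% and 0.0884% of counted fragments with vehicle and 4.95% and 6.49% with CPI-455, and mitochondrially encoded genes took 2.43% and 1.91% against 1.24% and 0.967%. Of 9 genes typical of LNCaP, 0 were called higher by any of the 3 tests (1, KLK2, at an unadjusted p below 0.05). In the quasi-likelihood test 6 were called lower, against 21.1% of all genes. Their summed level was 964 and 891 CPM in vehicle cells and 378 and 435 CPM in CPI-455 cells. Of 11 markers of other cell types, 3 had enough counts to test and 0 were called by edgeR's quasi-likelihood test or DESeq2 (2 by the likelihood-ratio test, and 1, COL1A1, at an unadjusted p below 0.05), the keratin KRT5 was at 0 in every library, and their summed level was 7.06 and 6.52 CPM in vehicle cells and 13.1 and 11.2 CPM in CPI-455 cells. COL1A1, a fibrillar collagen, stood at a log2 fold change of 0.98 (SE 0.31, edgeR FDR 0.0213), just short of 2-fold, and passed it without CPI-455 replicate 2 (1.14) and with upper-quartile factors (1.18).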

How the data were processed

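LNCaP RNA-seq libraries (2 with R1881 and vehicle, 2 with R1881 and CPI-455) were grouped by their sample labels. The authors trimmed reads with Trim Galore, aligned them to GRCh38 with STAR, and deposited raw counts of fragments per gene from featureCounts v1.5.0-p1 on Ensembl exons. Per the file headers counting ignored strand and skipped fragments that aligned more than once or met more than one gene. RNA selection and strandedness of the libraries are not given in the sources used here. Symbols were matched for 56558 genes.

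Genes with at least 20 summed counts were fitted with edgeR 4.0.16 in R 4.3.3 (TMM factors, glmQLFit, glmQLFTest, no covariates). CPM values use TMM-scaled library sizes, and fold changes of genes near 0 depend on edgeR's prior count. SE is the absolute fold change divided by the square root of the F statistic, so it is not a separate estimate of counting error. The test was also run on counts simulated with a common dispersion for all genes. Genes that vary more than that, as can those at low counts, are not covered by it. Hosts have at least 300 exon bases. Ratios of low counts carry exact conditional 95% intervals, which cover counting error only, since fragments carry no molecular identifiers. P-values use the spread between 2 libraries per group, which edgeR combines with that of other genes (a median of 9.80 degrees of freedom).

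Named members were the 5 with the highest mean CPM and, of members averaging 0 log2 CPM or more, the 3 with the largest called change in each class, all Cajal body RNAs and all members of hosts with 3 or more, with their hosts and the listed protein and marker genes. Some marker genes are not reported here by name. SNORD3A, SNORD3C, SNORD51, SNORD89, SNORD6, SNORA77, SNORA28 and the uncalled members that are named were added after their values were seen. Members and lists were chosen with earlier results of these data known. Alternatives were RLE and upper-quartile factors, library totals, TMM without members, mitochondrial genes and MALAT1, other filters, DESeq2 1.42.0, a likelihood-ratio test, glmTreat, an FDR below 0.01, a replicate block, a length and GC trend (mgcv 1.9.3), and each library left out.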

Additional observations from a re-analysis of the deposited data

How the results depend on the processing

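The direction of the members' median did not change in any fit. Members called higher numbered 53 in the quasi-likelihood fit, 52 to 54 with other normalizations or a likelihood-ratio test, 51 of 56 fitted with filterByExpr, 50 with no filter or with DESeq2, 47 with glmTreat, 46 at an FDR below 0.01 and 41 with a length and GC trend removed. Of all genes tested, 18.4% were called higher in the quasi-likelihood fit, 21.0% with filterByExpr and 9.92% with no filter. The share was 11.8% with glmTreat and 20.9% with the trend removed. For an FDR below 0.01 the share of all genes is not given here, so the 46 stands without a background. Of 19118 genes, 3327 were called higher with DESeq2 and 3027 to 4222 with other normalizations or a likelihood-ratio test. With at least 10 counts in every library only 8 members could be fitted, and all 8 were called higher (3 C/D box, 4 H/ACA box and 1 Cajal body). In that fit 2976 of 13590 genes were called higher. The medians over these few were 3.28 for the members, 3.40, 3.05 and 4.09 for the C/D box, H/ACA box and Cajal body RNAs, and 2.21 for member minus host, and 2669 of all genes were called lower. The filterByExpr medians were 4.54 for the members, 4.63 for C/D box and 4.91 for H/ACA box RNAs. The C/D box median was 4.55 with DESeq2 and with upper-quartile factors, and the H/ACA box median was 4.25 with upper-quartile factors, 3.88 with library totals and 3.91 with no filter. With glmTreat 2252 of all genes were called higher and 2371 lower. Only 1 Cajal body RNA was called higher with DESeq2, no filter, glmTreat, an FDR below 0.01, the block or the trend.

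With the length and GC trend removed, the medians were 2.90 for the members, 3.14 for C/D box, 2.61 for H/ACA box and 1.60 for Cajal body RNAs and 1.40 for member minus host, and 1 member was called lower. Of the genes called, 46.6% were higher with TMM, 38.9% with library totals, 42.2% with no filter, 57.1% with upper-quartile factors and 58.0% with the trend removed, and the median of all genes moved from -0.07 to 0.14 with upper-quartile factors, -0.23 with library totals, -0.41 with no filter and 0.15 with the trend removed. The cause was not tested.

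Same-numbered libraries did not deviate together (correlation of deviations 0.03), so the numbers were not taken to pair the samples. With a replicate block 46 members were called higher, against 3137 of 19118 genes, and the median of member minus host was 2.80. With the block and the trend removed 36 were called higher, 12 of them H/ACA box and 1 Cajal body, and 1 was called lower. Of 19118 genes, 3696 were then called higher and 2753 lower. The medians were 2.91 for the members, 3.11, 2.62 and 1.65 for the C/D box, H/ACA box and Cajal body RNAs and 1.39 for member minus host.

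Leaving out each library in turn gave 36 to 57 members called higher and 0 to 2 lower, 19 to 30 C/D box, 13 to 23 H/ACA box and 1 to 4 Cajal body RNAs, and 7 to 11 of the 30 protein genes. The medians were 4.05 to 4.41 for the members, 4.18 to 4.97 for C/D box, 4.27 to 4.42 for H/ACA box and 2.41 to 3.04 for Cajal body RNAs and 2.77 to 3.25 for member minus host. All genes called numbered 2534 to 4134 higher and 3015 to 4612 lower. The lone library of a group was assumed to vary like the others.

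Among the genes named, signs changed for some that were near 0 on the log2 scale or at 0 counts in a library. With the trend removed they were SNORD17 (-1.22), SNORD62B (-0.72), SNORA60 (-0.61), SCARNA12 (-0.27) and NOP10 (-0.16), and with the block added SNORD17 (-1.34), SNORD62B (-1.34), SNORA60 (-0.99), SCARNA12 (-0.64), SNORD127 (-0.23) and NOP10 (-0.16). With library totals they were GAR1 (-0.12), NHP2 (-0.012) and SNORD17 (-0.0059), with no filter GAR1 (-0.083), with the block SNORD17 (-0.028) and with upper-quartile factors FBL (0.077). Over the fits that each left out 1 library, SNORD62B ran from -6.98 to 1.596, SNORA60 from -6.06 to 1.86, SCARNA12 from -4.95 to 2.21, SNORD127 from -4.95 to 2.34, SNORA22 from -5.06 to 4.36, SNORD17 from -0.98 to 0.68 and GAR1 from -0.076 to 0.18. Low counts limit the precision of these fold changes, since 49 members had fewer than 20 counts in both vehicle libraries together, although these were the deeper libraries.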

Other observations

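Of the 550 annotated SNORD, SNORA and SCARNA genes, 484 had fewer than 20 counts. Of these, 387 had no fragment in any library, and 141 of the 387 share every exon base with another gene, which leaves no fragment that could be assigned to them. The remaining 97 had 1 to 19 counts. Summed over the 484 genes, fragments numbered 101 and 111 in vehicle cells and 237 and 152 in CPI-455 cells, a ratio of pooled CPM of 5.55. The minimum of 20 counts kept these genes out of the comparison of members, so this ratio is a description on the other side of the same threshold.

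Of the other tested genes under 300 exon bases, 124 are annotated as small RNAs. Among these 124, 50 (40.3%) were called higher and 17 (13.7%) lower, against 18.4% and 21.1% of all genes. Their median log2 fold change was 1.54. A few other short structured RNAs were also listed by name. Of 23 genes, 2 had enough counts to test, 10 had 0 counts in every library and 1 was not matched by symbol. RN7SL2, an RNA of the signal recognition particle, had 1333 and 1050 counts in vehicle cells and 539 and 55 in CPI-455 cells and was not called (log2 fold change -0.59, SE 0.49, edgeR FDR 0.322). RN7SL3, a copy of it, had -1.60 (SE 0.73, edgeR FDR 0.0847). Of the 2, edgeR's likelihood-ratio test called 1 and DESeq2 0, and 0 had an unadjusted p below 0.05 in the quasi-likelihood test. These copies share sequence, so their separate levels are uncertain. RN7SL2 differed between the CPI-455 libraries, at 35.3 ± 34.6 CPM (SD, n = 2), more than the summed members did, at 438 ± 23.4 CPM.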
